A study of Mus musculus with 4 samples.

Results

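Chromatin accessibility was examined at the promoters of the cytosolic ribosomal protein genes in bone-derived mesenchymal stem cells (MSCs) kept at low or atmospheric oxygen. The members were chosen by gene name and position, without using any measured value, although earlier results of these data were known at the time. A peak belonged to the set when its interval came to within 1 kb of an annotated start of a protein-coding gene (GENCODE M21, mm10) named Rps or Rpl plus a number, with an optional a, l or x, or named Rpsa, Rplp0, Rplp1 or Rplp2. This name rule took 80 genes, of which 78 had a peak, 31 encoding small-subunit and 47 large-subunit proteins. These genes held 90 of the 128055 peaks, and 79 of the 90 lay over a start site. The genes without a peak were Rpl3l, a copy used mainly in muscle, and Rpl10l, a copy used mainly in testis, and no protein-coding Rps4l gene was annotated.

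The cells came from the hind-limb bones of male C57BL/6N mice aged 3 to 5 months and were sorted as CD45-/Ter-119-/Sca-1+/CD140a+ cells. All cultures were started at low oxygen. The sorted population was then divided, with part returned to hypoxia (2% O2) and part shifted to normoxia (21% O2) for a week, both with 5% CO2. ATAC-seq, which uses a transposase to cut and tag open DNA, was run on equal numbers of cells for 2 hypoxia and 2 normoxia libraries. The study describes the libraries as independent experiments, whereas the labels do not say whether they came from separate mice, so the p-values measure the spread between these libraries only. The labelled cell type was checked against its markers. All 9 MSC marker genes had a promoter peak, whereas the blood genes Ptprc, Cd3e and Itgam had none, and 1 of 2 endothelial genes (Pecam1) had one.

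Each ribosome is built from a small subunit, which reads the mRNA, and a large subunit, which forms the peptide bonds. Their proteins are needed in equal amounts, and the genes are scattered over the genome yet transcribed at high level in almost every cell, from promoters regarded as housekeeping promoters. Most of their mRNAs start with a terminal oligopyrimidine tract, an unbroken run of C and T (U in the RNA) at the transcription start through which translation responds to nutrient and oxygen signalling. Mutations in several of the genes cause Diamond-Blackfan anaemia.

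The start sites of main peaks with the lowest and highest fold changes described further on are shown first, because the oligopyrimidine tract is the sequence feature the genes are known to share. Each line gives the sense strand from 80 bases before to 30 bases after the start annotated by RefSeq (GRCm38.p6, the assembly of mm10), and capitals mark the longest run of C and T found between 50 bases before and 30 bases after the start. Rps20, whose main peak had the lowest fold change, is named only.
Rpl34, chr3:130730308-130730417, minus strand: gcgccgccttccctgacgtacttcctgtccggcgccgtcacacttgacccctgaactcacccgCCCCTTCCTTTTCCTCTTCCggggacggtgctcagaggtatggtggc
Rps4x, chrX:102189362-102189471, minus strand: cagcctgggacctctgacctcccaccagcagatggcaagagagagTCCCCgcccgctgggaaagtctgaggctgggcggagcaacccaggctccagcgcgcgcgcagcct
Rpl36a, chrX:134585574-134585683, plus strand: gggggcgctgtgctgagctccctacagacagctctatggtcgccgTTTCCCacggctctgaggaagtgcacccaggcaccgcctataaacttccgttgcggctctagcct
Rpl4, chr9:64173307-64173416, plus strand: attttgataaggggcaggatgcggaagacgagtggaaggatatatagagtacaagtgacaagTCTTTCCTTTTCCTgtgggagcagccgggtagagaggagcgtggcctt
Rpl19, chr11:98026844-98026953, plus strand: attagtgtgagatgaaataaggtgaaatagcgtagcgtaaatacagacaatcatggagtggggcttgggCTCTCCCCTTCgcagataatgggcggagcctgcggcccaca
Rps2, chr17:24719983-24720092, plus strand: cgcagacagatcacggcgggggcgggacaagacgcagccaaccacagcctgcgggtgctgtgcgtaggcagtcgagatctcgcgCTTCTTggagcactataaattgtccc
Rps15, chr10:80292351-80292460, plus strand: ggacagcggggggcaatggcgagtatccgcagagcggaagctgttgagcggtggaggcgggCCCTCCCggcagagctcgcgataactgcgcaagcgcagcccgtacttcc

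The longest run was 20 bases at Rpl34, 14 at Rpl4 and 11 at Rpl19, and between 5 and 7 bases at Rps15, Rps2, Rpl36a and Rps4x. Long runs therefore occurred at both ends of the fold-change order, with Rpl34 among the lowest and Rpl4 and Rpl19 among the highest. Only the run at Rpl34 crossed the annotated start. The run at Rps2 began after the start, and those at the other genes shown ended before it. The marked runs are therefore not shown to be the tracts of the mRNAs. RefSeq start windows were found for 60 genes of the name rule, and 58 of these genes had a start inside a member peak. Over their 68 start windows the longest run had a median of 9 bases, and 61.8% of windows held a run of at least 8, against a median of 6 bases and 27.8% of the 13561 start windows of other protein-coding genes that lay in a peak. Short motifs were searched on both strands from 250 bases before to 50 bases after each start. The letters CCGGAAG, a binding site form of the ETS factors such as GABPA, occurred in 38.2% of the ribosomal protein windows and 16.5% of the other windows. AAGATGG, the core bound by YY1, occurred in 14.7% and 6.5%. The GC box GGGCGG bound by SP1 (60.3% and 64.7%), the CCAAT box CCAAT (32.4% and 37.4%), the TATA box TATAAA (7.35% and 6.70%), the NRF1 core GCATGCG (7.35% and 6.08%) and the E-box CACGTG (11.8% and 9.84%) were found at shares closer to those of the other windows. ACGTG, the core of the hypoxia response element and also a part of the E-box, occurred in 33.8% and 25.2%. Over all protein-coding start windows, in a peak or not, CCGGAAG occurred in 11.6%, AAGATGG in 6.24%, ACGTG in 20.9%, GGGCGG in 46.2%, CCAAT in 38.2%, TATAAA in 12.6%, GCATGCG in 4.44% and CACGTG in 7.84%.

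The deposited values are reads per peak scaled to a fixed library total and are not divided by peak width. Whole reads could be recovered from them, and the libraries totalled between 26680936 and 29965523 reads. Nuclear peaks took 49.2 and 53.2% of the reads in hypoxia against 31.0 and 35.2% in normoxia, a share that moved with condition. Mitochondrial peaks took 7.77 and 9.13% against at most 2.34%. Before testing, values were divided by RLE size factors (the median ratio to a geometric mean library, which centres the typical peak), of 1.14 and 1.24 in hypoxia against 0.815 and 0.892 in normoxia. Fold changes are given as normoxia relative to hypoxia in log2(value + 1), a scale that compresses the changes of low peaks, and were tested with limma over all 128055 peaks at a false discovery rate (FDR) under 0.01.

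All 78 genes had a promoter peak that the caller found in both conditions, with 11 to 1686 reads per library. Taking for each gene its peak with the highest mean value as its main peak, the median number of reads per peak was 323.5 and 383 in hypoxia against 178 and 240.5 in normoxia. The main peaks were 2800 bp wide in the median (800 to 25200 bp), and their median level was 30.1 per kb of peak against 23.9 per kb in the 17571 other promoter peaks. Per kb the levels ranged from 11.5 at Rpl39l to 126.6 at Rps29, so even the lowest gene of the set had an accessible start. High levels per kb were also found at Rps19 (82.3) and Rps21 (76.4), both small-subunit genes. Low levels per kb were also found at Rpl36 (12.5) and Rpl24 (14.4), both large-subunit genes, whose peaks were 7500 and 6000 bp wide.

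**Figure D1:**
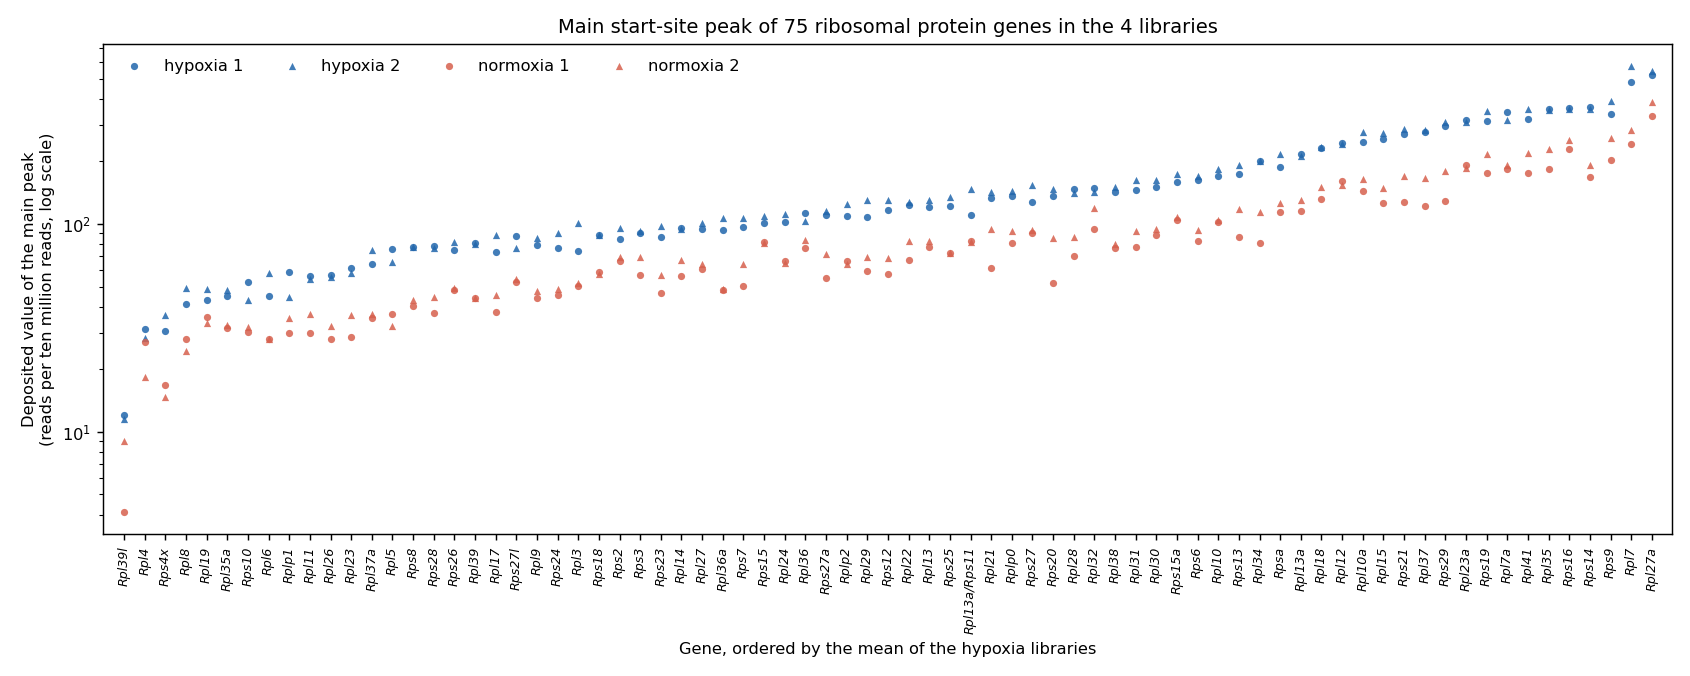
The deposited value of the main peak (reads scaled to a fixed library total, log axis) is plotted for 75 genes in the 2 hypoxia libraries (blue) and the 2 normoxia libraries (red), with genes ordered by the hypoxia mean. Before RLE scaling the red points lie below the blue points at all 75 main peaks shown.

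As deposited, values at ribosomal protein promoters were lower in normoxia-cultured cells, as they were at most promoters. At 86 of the 90 peaks the higher normoxia library was below the lower hypoxia library, against 59.5% of all peaks and 86% of other promoter peaks. The median log2 fold change was -0.79, beside -0.44 over all peaks and -0.73 over other promoters, and limma called 70 of 90 lower, against a background of 24% of all peaks and 60.5% of other promoter peaks. The ribosomal protein peaks together held 0.244% ± 0.004 of nuclear peak reads in hypoxia and 0.220% ± 0.002 in normoxia (SD, n = 2). The groups did not overlap, but the two-sided exact permutation p was 0.333, the smallest that 2 libraries against 2 allow. Of the reads in nuclear promoter peaks they held 0.633% ± 0.004 and 0.642% ± 0.009 (SD, n = 2; exact permutation p = 0.667), and here the libraries overlapped.

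After RLE scaling the decrease was smaller. The median log2 fold change of the 90 peaks was -0.34 (interquartile range -0.44 to -0.17), against -0.0039 over all peaks and -0.27 over other promoters, and 81 of 90 were below zero. limma called 11 of 90 lower, which is 12.2%, against 4.57% of all peaks and 16.7% of other promoter peaks. No member was called higher (0 with an unadjusted p under 0.05 by limma, and 0 called by edgeR), against 1.77% of all peaks and 0.444% of other promoter peaks. An unadjusted p under 0.05 was reached by 52 peaks, all lower, of which 48 were main peaks. The others were peaks that the caller found in hypoxia only, so their direction followed from that assignment. The normoxia libraries were both below the hypoxia libraries at 70 peaks, against 29.6% of all peaks and 60.3% of other promoters, and both above them at 2, Rps15 and Rps2, against 27.4% of all peaks. Of the 11 called peaks, 4 were also called without normoxia library 1 (6 members lower in all) and 10 without normoxia library 2 (18 members lower in all). Without either hypoxia library limma called no peak of the whole table, with 25 and 26 members lower at an unadjusted p under 0.05. The share called lower thus exceeded that over all peaks and fell short of that over the other promoters. The share of reads in nuclear peaks moved with the same libraries, and so did the share in mitochondrial peaks. Scaling every library to the same total over peaks counted the mitochondrial peaks in that total. With this scaling the median was -0.05 (0.26 over all peaks), and 0 of 90 were called in either direction by limma. At an unadjusted p under 0.05, 6 were lower and 8 higher. Cyclic loess, a scaling that removes any trend of the fold change with strength, left 0 members called lower (11 with an unadjusted p under 0.05), against 1.31% of all peaks, and 2 called higher, against 1.42%, which were Rpl27a and Rps16.

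**Figure D2:**
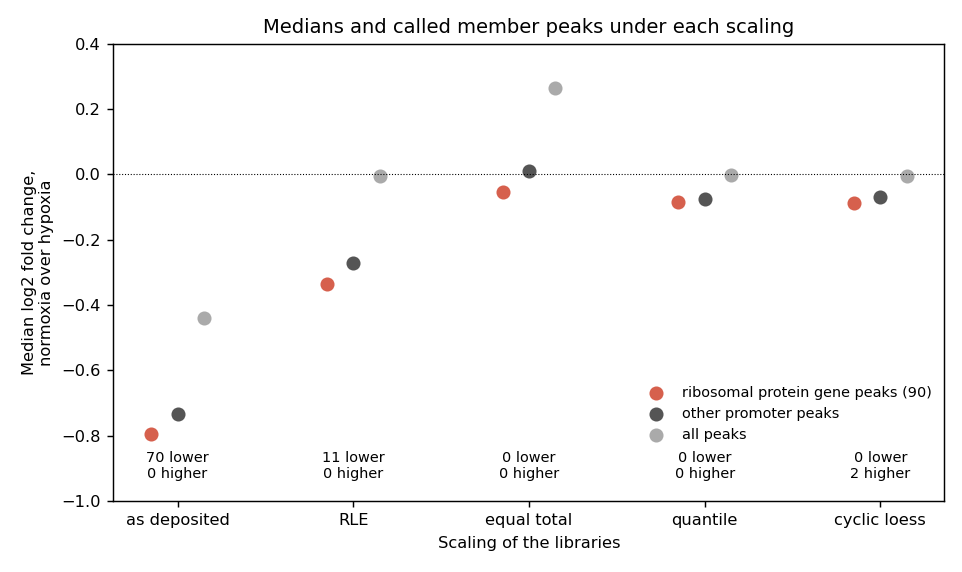
Median log2 fold change (normoxia over hypoxia) of the ribosomal protein gene peaks, the other promoter peaks and all peaks under 5 ways of scaling the libraries, with the number of member peaks called by limma printed at the foot. The ribosomal protein median lies at most 0.066 below that of the other promoters under each scaling shown, while its own value ranges from -0.79 to -0.05.

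Fold changes of promoter peaks run with peak strength, so each member was set beside the 200 other promoter peaks nearest in mean log2 value. The difference had a median of -0.03, with 48 of 90 members below their neighbours. The same difference in level, taken within each library for the main peaks, was -0.02 and 0.00 in hypoxia, against 0.04 and -0.01 in normoxia, with a spread between replicates of 0.03 (pooled SD). The median was 0.01 when the neighbours were also of similar width (within 25%). Of the 78 main peaks, 68 lay within 2 standard errors of the median of their neighbours, 2 lay further below (Rps4x and Rpl5) and 8 further above, among them Rps15, Rpl32, Rpl36, Rps2, Rpl27a, Rps16 and Rpl12. The ribosomal protein promoters as a set were therefore placed where promoters of their strength lie.

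**Figure D3:**
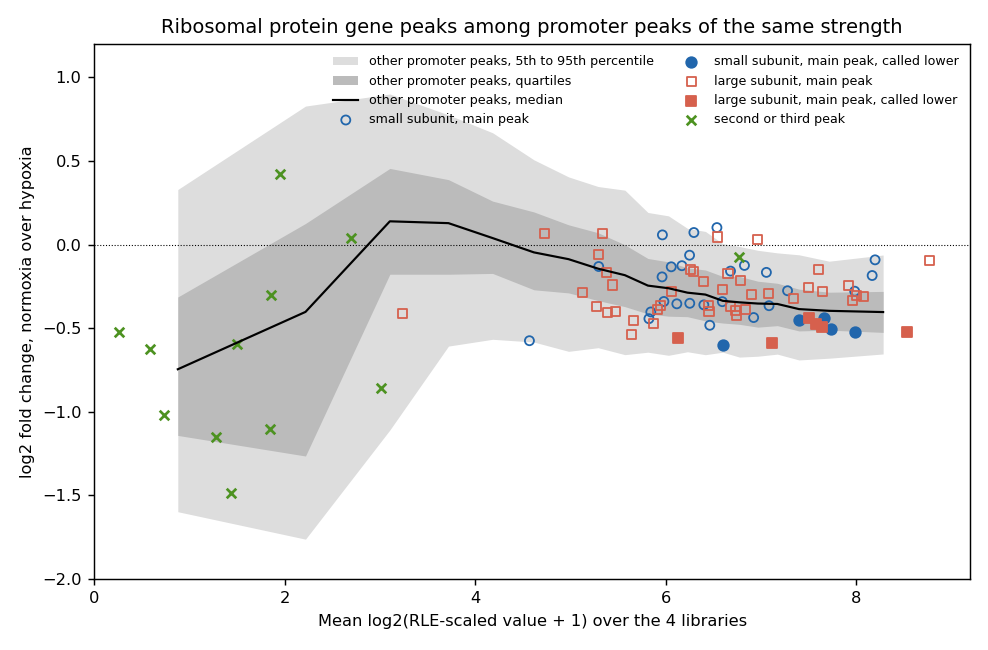
Log2 fold change (normoxia over hypoxia) against mean log2(RLE-scaled value + 1) for the main peaks of small-subunit (circles) and large-subunit genes (squares), filled where called lower, and for the 12 further peaks of the same genes (crosses). The grey bands give the quartiles and the 5th to 95th percentiles of the other promoter peaks, and most main peaks lie inside the outer band around its median line.

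All 11 called peaks were main peaks, 5 of small-subunit and 6 of large-subunit genes. Rps20 (chr4:3834701-3836500), a protein of the small-subunit head, had values of 136.2 and 146.5 in hypoxia against 51.7 and 85.4 in normoxia. Its log2 fold change after scaling was -0.60 ± 0.15 (SE; limma FDR = 0.00539), the lowest among the main peaks. The normoxia libraries differed more from each other here than the hypoxia libraries did, without overlap between the groups. Relative to the median of all peaks, the log2 fold change of Rps20 was -0.30 without normoxia library 1, where Rps20 was not called, and -0.89 without normoxia library 2. Its place as the lowest depended on normoxia library 1, without which Rps4x (-0.73) and Rpl36a (-0.61) were lower. Rpl34 (chr3:130728801-130731300), a large-subunit protein, had 201.7 and 201.3 in hypoxia against 80.6 and 113.8 in normoxia, with log2 fold change -0.59 ± 0.13 (SE; limma FDR = 0.00177). Rpl36a (chrX:134585001-134586400), an X-linked large-subunit protein, had 93.1 and 107.1 against 48.3 and 48.4, with log2 fold change -0.56 ± 0.14 (SE; limma FDR = 0.00706). These 3 peaks were at most 2500 bp wide, against a median of 2800 bp for the main peaks. Each covered only part of its gene, as did 64 of the 78 main peaks.

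Among the other called genes, Rpl7 (large subunit) had a log2 fold change of -0.53, Rps14 of -0.52, Rps29 of -0.51, Rpl37 (large subunit) of -0.49, Rpl15 of -0.47 and Rps21 of -0.44. Rps29 (chr12:69158401-69160200), a zinc-binding protein of the small subunit, had the highest level per kb of the set, with values of 294.8 and 308.4 in hypoxia against 128.6 and 179.5 in normoxia. The groups did not overlap, but without normoxia library 1 its log2 fold change relative to the median of all peaks was -0.32 and it was not called (limma FDR = 0.0193). The main peak of Rpl7 also covered a start of Rdh10, and that of Rpl15 also covered a start of Nkiras1. The main peak of Rps14, a platform protein of the small subunit known from the 5q- syndrome, covered upstream Rps14 starts and a start of Ndst1. The other Rps14 peak, over the starts further downstream, had values of 118.5 and 147.2 in hypoxia against 85.1 and 94.8 in normoxia, with log2 fold change -0.08 ± 0.13 (SE; limma FDR = 0.731). The call for Rps14 therefore belongs to a peak shared with another gene.

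The 4 highest fold changes among the main peaks were found at Rps15, Rps2, Rpl19 and Rpl4, and none was called. Rps15 (chr10:80291201-80296700), a small-subunit protein at the contact between the subunits, had values of 101.6 and 109.5 in hypoxia against 81.7 and 80.8 in normoxia. Its values fell less than those of the typical peak, so that its log2 fold change after scaling was 0.10 ± 0.13 (SE; limma FDR = 0.651), with the scaled normoxia values above the scaled hypoxia values. Rps2 (chr17:24718501-24721600), which lines the mRNA entry channel, had 84.9 and 95.2 against 66.3 and 69.4 with log2 fold change 0.07 ± 0.14 (SE; limma FDR = 0.771). Rpl19 (chr11:98025901-98027700), a large-subunit protein that reaches over to the small subunit, had 43.2 and 48.6 against 35.6 and 33.4. Rpl4 (chr9:64172301-64173800), which lines the peptide exit tunnel, had 31.1 and 28.2 against 27.0 and 18.4. The scaled values of the hypoxia and normoxia libraries overlapped at both Rpl19 and Rpl4.

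Rps4x and Rpl5 had the main peaks that lay over 2 standard errors below promoters of equal strength. Rps4x (chrX:102188701-102189800), a small-subunit protein, had values of 30.4 and 36.4 in hypoxia against 16.9 and 14.7 in normoxia, with log2 fold change -0.58 ± 0.21 (SE; limma FDR = 0.0593, not called). The 4 X-linked main peaks (Rps4x, Rpl36a, Rpl39 and Rpl10) had a median log2 fold change of -0.47 with 1 called, and 3 of the 4 lay below their neighbours in strength. Rpl5 (chr5:107900001-107901900) had 75.4 and 65.6 in hypoxia against 36.7 and 32.4 in normoxia, with log2 fold change -0.54 ± 0.16 (SE; limma FDR = 0.0253, not called). Rpl5 and Rpl11 carry the smallest ribosomal RNA of the large subunit and, when ribosome assembly fails, bind Mdm2 and stabilise p53, as Rpl23 and Rps7 also do. All 4 of these Mdm2-binding proteins had a main peak below its neighbours (median difference -0.15), as did 41 of the 78 main peaks. Their groups did not overlap after scaling, as at 60.3% of other promoter peaks, but 0 of 4 were called by limma (median log2 fold change -0.38). Rpl11 had values of 56.3 and 54.1 in hypoxia against 30.0 and 37.0 in normoxia, and Rpl23 had 61.2 and 58.1 against 28.5 and 36.4.

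The subunits did not separate. Of the small-subunit main peaks 5 of 31 were called lower with a median log2 fold change of -0.34, and of the large-subunit main peaks 6 of 47 with a median of -0.31. The difference between the medians, -0.03, was smaller than the spread of this difference between replicate libraries, 0.10 (pooled SD). The stalk proteins, which recruit the elongation factors to the large subunit, had 0 of 3 called. Rplp0, the base of the stalk, had values of 135.9 and 144.2 in hypoxia against 81.3 and 92.1 in normoxia (log2 fold change -0.21 ± 0.12, SE). Rplp1 and Rplp2, its acidic partners, had log2 fold changes of -0.17 ± 0.18 and -0.36 ± 0.13 (SE). The groups overlapped after scaling only at Rplp1, where the hypoxia libraries stood at 58.7 and 44.5 as deposited and the normoxia libraries at 30.0 and 35.4.

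Further members were named for their known roles. Rpsa, a small-subunit protein first described as a laminin receptor, had values of 187.5 and 217.6 in hypoxia against 113.6 and 125.8 in normoxia (log2 fold change -0.28 ± 0.11, SE). Rps6, the substrate of the S6 kinases downstream of mTOR, had 162.8 and 170.7 against 82.8 and 93.8 (log2 fold change -0.44 ± 0.12, SE; limma FDR = 0.0134, just above the threshold). Rps27a, which is made as a fusion with ubiquitin, had 110.1 and 115.3 against 55.1 and 71.4 (log2 fold change -0.36 ± 0.14, SE). At all 3 genes the normoxia libraries were both below the hypoxia libraries after scaling, and none was called. The same held at 29.6% of all peaks, 60.3% of other promoter peaks and 80.8% of the main peaks. Rps19, the gene most often mutated in Diamond-Blackfan anaemia, had 313.2 and 348.5 against 176.2 and 216.2 (log2 fold change -0.28 ± 0.10, SE; not called). Of the 15 Diamond-Blackfan genes, 2 were called lower, Rps29 and Rpl15, and their median was -0.28. Rpl41, which encodes a very short basic peptide, had 319.2 and 358.3 against 176.5 and 218.6 (log2 fold change -0.30 ± 0.10, SE; not called).

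The gene copies Rps27l and Rpl39l showed less clear values. Rps27l, a copy of Rps27 and a known p53 target, had 87.4 and 76.5 in hypoxia against 52.5 and 54.4 in normoxia (log2 fold change -0.13 ± 0.15, SE). Rpl39l, a copy of Rpl39 used mainly in testis, had the weakest main peak of the set, with 34 reads in each hypoxia library and 11 and 27 reads in the normoxia libraries. The fold change (log2 -0.41 ± 0.32, SE; limma FDR = 0.411) did not exceed the spread between the normoxia libraries. After scaling the groups overlapped at both genes.

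Peak width and the part of the gene covered went with the fold change. The 14 main peaks that covered the whole gene body had a median log2 fold change of -0.14 with 1 called (Rps21), while the 64 that covered part of it had a median of -0.36 with 10 called. Of the 14, 13 lay above the promoters of equal strength, by 0.24 in the median, and 13 of 14 still lay above when the neighbours were of similar width, by 0.13 in the median. Rpl27a (chr7:109515901-109541100), a large-subunit gene whose peak of 25200 bp was the widest, had values of 522.3 and 544.6 in hypoxia against 332.1 and 387.1 in normoxia, a log2 fold change of -0.09 ± 0.09 (SE). Rps16 (chr7:28347501-28361400), a small-subunit gene with a peak of 13900 bp, had 360.9 and 357.3 against 230.5 and 253.6, a log2 fold change of -0.09 ± 0.10 (SE). Rpl32, with a peak of 6600 bp, had 148.3 and 142.8 against 94.8 and 119.8, and Rpl36, with a peak of 7500 bp, had 112.9 and 103.0 against 76.5 and 83.4. At Rpl27a and Rps16 the groups remained apart after scaling, and at Rpl32 and Rpl36 they overlapped.

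By width alone, the 29 main peaks of up to 2 kb had a median log2 fold change of -0.36, the 28 of over 2 and up to 4 kb one of -0.36, and the 21 wider ones one of -0.22. In the same classes the other promoters had medians of -0.22, -0.31 and -0.28, with 7.48, 23.8 and 25.99% called lower, against 4, 5 and 2 ribosomal protein peaks. The wider ribosomal protein peaks divided further, with a median of -0.12 for the 13 that covered the gene and -0.29 for the 8 that did not. Across the 78 main peaks the fold change had a Spearman's rho of 0.21 with width and -0.45 with the level per kb, against -0.05 and -0.39 across the other promoters. These correlations are across peaks that share the same 4 libraries and describe them only.

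**Figure D4:**
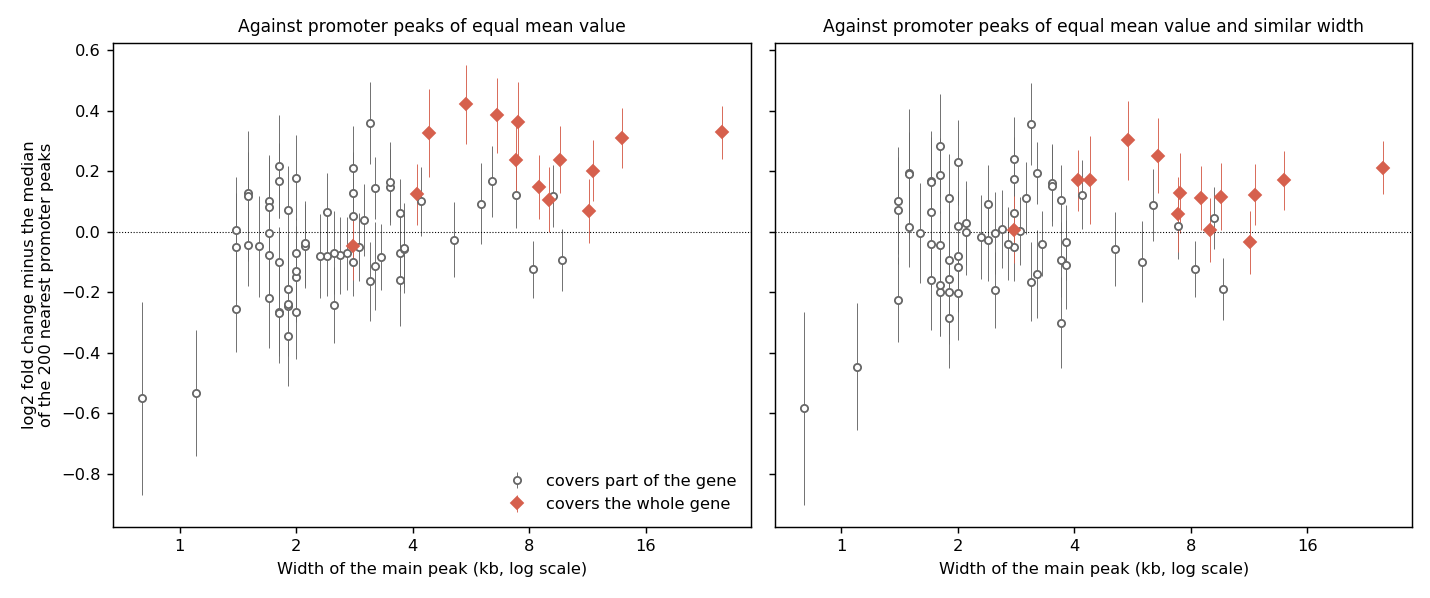
The log2 fold change of each main peak minus the median of its 200 nearest promoter peaks, matched by mean value (left) or by mean value among peaks of similar width (right), against peak width in kb (log axis). Bars are the standard error of the fold change. Peaks that cover the whole gene (red diamonds) lie above zero in 13 of 14 cases in each panel.

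Median fold changes, not matched for strength, were close whether or not a peak was shared with a neighbouring gene and whether or not the gene held a guest RNA. The 20 main peaks that also lay within 1 kb of the start of another protein-coding gene, such as Rps25 with Trappc4, Rps27a with Clhc1 and Rpl7a with Med22, Surf1 and Surf2, had 3 called lower and a median of -0.28, and the 58 others 8 and -0.35. Beside promoters of equal strength, the shared peaks had a median difference of 0.10, with 7 of 20 below their neighbours. The 58 others had a median difference of -0.05, with 34 below. Among neighbours of similar width the median differences were 0.06 and 0.003. The 29 genes that host small nucleolar RNAs in their introns, which guide the modification of ribosomal RNA, had 3 called and a median of -0.32, and the 49 others 8 and -0.31. Peaks with the ETS letters at a RefSeq start had a median log2 fold change of -0.35 (25 peaks). Peaks with a RefSeq start lacking them had -0.27 (36 peaks). For the hypoxia response core the same medians were -0.25 (18 peaks) and -0.32 (42 peaks). A peak with several starts could count in both groups.

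Beside the main peaks, 12 smaller peaks lay within the window at 11 genes, Rpl22 having a pair of them. Apart from the peak at Rps14, they held between 0 and 51 reads per library, and 0 of the 12 were called by limma (4 lower at an unadjusted p under 0.05). These 4, at Rpl41, Rps20, Rpl18 and Rpl36a, were all assigned by the caller to hypoxia only. Their direction followed from that assignment and is no separate result. The peak caller assigned 8 of the 90 members to hypoxia only, against 6.84% of all peaks and 6.63% of other promoter peaks. They were the second peaks of Rpl41, Rpl36a, Rpl18, Rpl35a, Rps20, Rpl9, Rps29 and Rpl22. All 8 directly adjoined a peak that the caller found in both conditions, as did 98.8% of the hypoxia-only peaks at other promoters, and at Rpl18 that peak was not the main peak of the gene. At Rps20 the hypoxia-only peak (chr4:3833601-3834700) held 22 and 51 reads in hypoxia and 12 in each normoxia library. At Rpl41 it held 16 and 9 reads in hypoxia against 2 and 1 in normoxia, and at Rpl22 2 and 1 against 0 and 0, which a counting limit of 3 reads cannot tell from the hypoxia counts. At the edges with the fewest reads, such as those of Rpl22 and Rpl9, a difference was not detectable at this depth.

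Other genes of ribosome production also had medians below zero after RLE scaling, as did the other promoter peaks as a whole, which had a median of -0.27 with 16.7% called lower. Of the 7 ribosomal protein genes outside the name rule, such as Fau, Rps3a1, Rack1 and Rpl36al, 1 was called lower, Rpl22l1, with values of 300.8 and 354.6 in hypoxia against 156.3 and 183.9 in normoxia (log2 fold change -0.47 ± 0.10, SE), and the median was -0.25. Of 16 translation factors and related genes whose mRNAs carry the same oligopyrimidine tract, 1 was called, Eef1b2, a subunit of the factor that recharges the elongation factor eEF1A, with 93.1 and 114.2 against 46.5 and 55.4, and the median was -0.32. Of 15 genes of RNA polymerase I and its initiation factors, which transcribe the ribosomal RNA, 4 were called (Znrd1, Taf1b, Cd3eap and Polr1d) with a median of -0.41. Of 20 ribosome assembly genes 2 were called, Utp3 and Heatr1, with a median of -0.35. The 78 genes of the mitochondrial ribosome had 77 main peaks, of which 14 were called lower, and a median of -0.27, with a wider range (-0.91 at Mrps30 to 0.45) than the cytosolic genes (-0.60 to 0.10). No gene of these 5 lists was called higher by limma, and each list's median lay between -0.08 and 0.08 from promoters of equal strength.

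**Figure D5:**
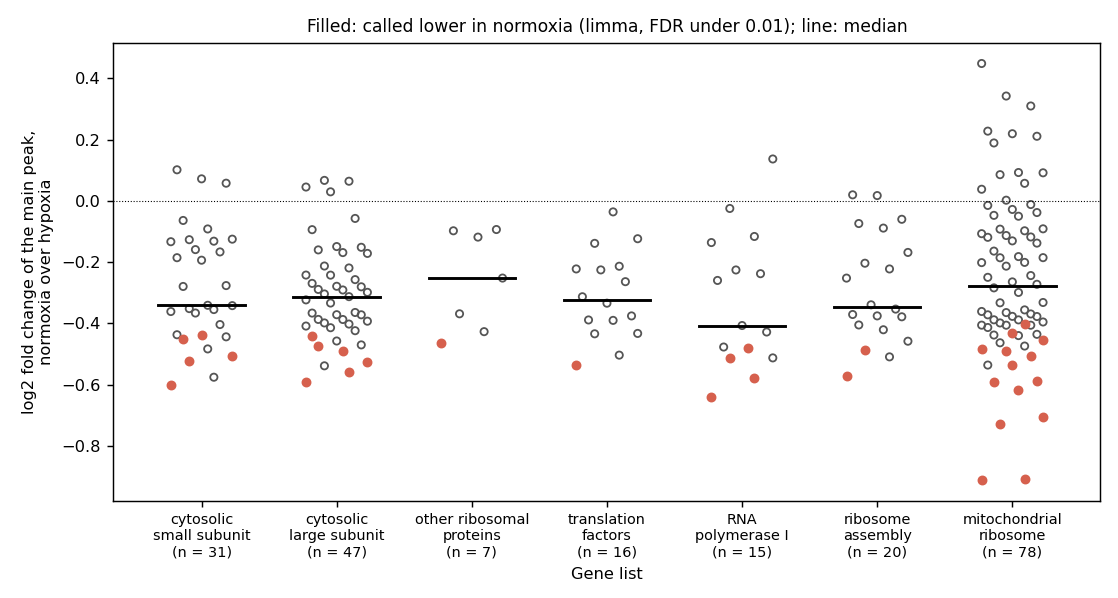
Log2 fold change of the main peak (normoxia over hypoxia) of each gene in the cytosolic subunits and in the 5 further lists, with red points called lower by limma and a black line at the median. After RLE scaling every list has its median below zero, and the mitochondrial ribosomal protein genes spread furthest.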

How the data were processed

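ATAC-seq libraries were mapped by the authors to mm10 with Bowtie2 (local alignment), duplicates were removed with Picard MarkDuplicates and peaks were called jointly with chromstaR in differential mode (bin size 300, step size 100, minimum mapping quality 15). The deposited signal values, called RPKM by the authors, are reads per peak scaled to the same total in each library, without division by width. All values came out as whole reads within 0.1 read, so the library totals could be recovered. Here log2(value + 1) after RLE scaling was fitted with limma 3.58.1 (R 4.3.3; lmFit, eBayes with trend and robust estimation, two-sided, Benjamini-Hochberg adjustment over 128055 peaks, FDR under 0.01), in place of the count model of the study. edgeR 4.0.16 (robust quasi-likelihood test) was run on the recovered reads as an alternative. Both scripts were tested on simulated data. The reported fit used all 4 libraries, with condition as its only term.

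Start sites were those of all protein-coding transcripts of protein-coding genes, and other promoter peaks lay within 1 kb of one. Of them, 7 lay on the mitochondrial genome, which was left out of shares of reads. Named genes were, among main peaks, the 4 lowest and 4 highest fold changes, the 4 highest and 4 lowest levels per kb, every gene called higher or assigned to one condition by the caller, and a fixed list of genes of known role; other genes called lower are also named, and a few genes are not reported here. The members and lists were chosen with earlier results of these data known. Alternatives covered the scaling, the pseudocount, a minimum mean value, the variance estimation, the test, a replicate block, each library left out, the FDR, the window and the matching. Sequences are from RefSeq, GRCm38.p6, and were not shown for genes without an entry.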

Additional observations from a re-analysis of the deposited data

How the results depend on the processing

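The number of members called lower (11) depended on the processing. It was 70 with values as deposited, 0 with equal totals over peaks, quantile normalization or cyclic loess (6, 11 and 11 lower at an unadjusted p under 0.05), 6 with a pseudocount of 0.1, 0 without trend and robust estimation (where limma called no peak at all and 17 members had an unadjusted p under 0.05), and 27 at an FDR under 0.05. Cyclic loess called 2 members higher, Rpl27a and Rps16, against 1.42% of all peaks, and a window of 2 kb added 1 member called higher. edgeR called 13 lower and 0 higher, including all 11. Leaving out 1 library gave 0 to 18 lower, with 0 without hypoxia library 1 or 2 (no peak was called at all, and 25 and 26 members had an unadjusted p under 0.05), 6 without normoxia library 1 and 18 without normoxia library 2; a lone library was assumed to vary like the other group. Over all peaks limma called 5857 lower and 2266 higher under RLE, 30729 lower as deposited, 1072 and 8757 with equal totals, 922 and 1159 with quantile normalization and 1681 and 1819 with cyclic loess.

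The median log2 fold change (-0.34) was -0.79 as deposited, -0.0540 with equal totals, -0.0856 with quantile normalization, -0.0876 with cyclic loess and -0.29 with a pseudocount of 5, and ranged from -0.34 to -0.29 with 1 library left out. Relative to the median of all peaks it was -0.35 as deposited, -0.32 with equal totals and -0.083 with quantile normalization or cyclic loess. The difference from promoters of equal strength (-0.03) was 0.0079 among peaks of similar width and 0.0120 matched per kb. With 1 library left out it ran from -0.0106 to 0.0294, with 0.0110 and 0.0198 without hypoxia library 1 and 2 and the highest value without normoxia library 2.

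Relative to the median of all peaks, quantile normalization and cyclic loess turned the sign at Rps19 (0.099 and 0.133), Rpl24 (0.0153 and 0.0110), Rpsa (0.0571 and 0.0576), Rplp0 (0.0702 and 0.0644), Rps27l (0.0521 and 0.0536), Rpl41 (0.0757 and 0.111) and Rpl18 (0.0971 and 0.102), and cyclic loess at Rpl35a (0.0147). With 1 library left out, the sign also turned at 6 genes, whose values ran from -0.259 without normoxia library 1 to 0.398 at Rpl4 (-0.0492 without hypoxia library 2), from -0.0339 without normoxia library 1 to 0.179 at Rpl19, from -0.852 to 0.0312 without normoxia library 1 at Rpl39l, from -0.0670 without hypoxia library 2 to 0.178 at Rpl36, from -0.409 to 0.0930 without hypoxia library 1 at Rplp1 and from -0.275 to 0.0286 without hypoxia library 1 at Rps27l. The causes were not tested. With a replicate block 14 members were called lower, beside 22.2% of other promoter peaks and 8471 of all peaks, and the median stayed at -0.34. The study divided the sorted cells between the conditions, but the labels do not say whether same-numbered libraries came from the same sort. Deviations of same-numbered libraries correlated at 0.01 over all peaks and 0.14 over the members. The reported fit did not pair the libraries by number, and a correlation across peaks cannot settle whether they were paired.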
